A study of Homo sapiens with 18 samples.

Results

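FOXA1 binding was compared between MDA-MB-453 and SKBR3, established breast cancer cell lines both known as estrogen receptor negative, from 4 ChIP-seq peak lists with 2 biological replicates per line. ChIP-seq recovers the DNA bound by a protein with an antibody and marks as peaks the stretches where sequenced fragments pile up. These lists hold 565419 of the 1134209 peaks of the series, which also maps the corepressor TLE3 in both lines and both factors in T47D. MDA-MB-453 is a line known for apocrine features, and SKBR3 is known for amplified ERBB2. Both lines were kept in standard culture and no treatment is named in the labels. The labels call them breast epithelial, which peak lists cannot check by expression, and the source of the replicate cultures is not told. The p-values below therefore measure the spread between these libraries, which may be technical.

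Peaks of the 2 replicates of a line were merged, and a merged region made from both was taken as a site. This gave 135315 sites in MDA-MB-453 and 90520 sites in SKBR3. A shared site overlapped a site of the other line by at least 1 bp, a specific site had no peak of either replicate of the other line, and an intermediate site met a peak of the other line but no site. Read numbers are not part of the lists. Depth is therefore unknown, and the number of peaks may follow the depth of a library as well as binding. They give no input DNA either, so less binding and fewer copies of a region cannot be told apart.

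FOXA1 is a forkhead protein with a winged-helix domain that binds DNA in closed chromatin and opens it for other factors. It is called a pioneer factor for this reason. In luminal breast cells it is known for preparing enhancers used by steroid hormone receptors, and most of its sites lie away from promoters. TLE3 is a Groucho family corepressor that has no DNA-binding domain and is brought to DNA by partner proteins.

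Promoters bound in one line, in the other or in both differed in how often they held a forkhead motif. Windows of 300 bases around gene starts, 250 upstream and 50 downstream, were taken from RefSeq (GRCh38.p14) for 15812 protein-coding genes. The forkhead core TGTTTAC, the variant TATTTAC and another variant, TGTTTGC, were searched on both strands, and matches may overlap at their ends. At least 1 of them was in 7.96% of all 22132 windows. The share was 5.13% of the 2785 windows with an MDA-MB-453-specific site and 18.9% of the 217 windows with a SKBR3-specific site. It was 15.7% of the 3321 windows with a shared site and 6.84% of the 12139 windows with no peak of the 4 lists. Promoters under MDA-MB-453-specific sites held 64.2% G and C, those under SKBR3-specific sites 52.5% and those under shared sites 61.1%. In lists cut to equal length the order was the same, with 6.10% of 1344 MDA-MB-453-specific windows, 19.7% of 356 SKBR3-specific windows and 16.7% of 2850 shared windows. Among sites in the upper 50% of their line by score, 9.23% of 466 MDA-MB-453-specific windows and 16.4% of 73 SKBR3-specific windows held a motif, against 16.9% of 2658 shared windows. Windows are not replicates and no test was made. A match is a run of letters and not a shown binding site.

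6 of these promoters are printed, chosen from the 3 of each kind with the highest ranked sites after their motifs were seen: the top promoter of each kind and all 4 that hold a match. Capitals mark a motif match on either strand, and a window with no capitals held none of the 3 words. NR2F1, an orphan nuclear receptor gene, had the highest ranked MDA-MB-453-specific promoter (chr5:93582972-93583271, plus strand). The second and the third, at MINDY4B and IQGAP2, also held no match and are not printed. CNR2, the cannabinoid receptor of immune cells (chr1:23913313-23913612, minus strand), had the highest ranked SKBR3-specific promoter, and XAGE2, a cancer-testis antigen gene (chrX:52368771-52369070, plus strand), was the only one of the top 3 with a match. The second, at TBX18, is not printed. DNPEP, an aminopeptidase gene (chr2:219399958-219400257, minus strand), RHOH, a small GTPase gene of blood cells (chr4:40190830-40191129, plus strand), and TPRG1L (chr1:3624765-3625064, plus strand) had the 3 highest ranked shared promoters, each with 1 match.
NR2F1: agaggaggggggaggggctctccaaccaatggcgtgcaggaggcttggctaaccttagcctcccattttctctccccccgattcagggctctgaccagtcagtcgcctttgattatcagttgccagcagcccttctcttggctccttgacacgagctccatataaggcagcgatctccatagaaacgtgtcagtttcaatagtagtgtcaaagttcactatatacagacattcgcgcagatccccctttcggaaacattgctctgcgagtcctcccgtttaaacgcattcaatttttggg
CNR2: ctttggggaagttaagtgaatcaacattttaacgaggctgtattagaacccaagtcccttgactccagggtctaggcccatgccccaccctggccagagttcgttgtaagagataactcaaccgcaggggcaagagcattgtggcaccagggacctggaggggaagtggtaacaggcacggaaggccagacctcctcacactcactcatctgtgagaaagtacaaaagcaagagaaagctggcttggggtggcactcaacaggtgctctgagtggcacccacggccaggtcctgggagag
XAGE2: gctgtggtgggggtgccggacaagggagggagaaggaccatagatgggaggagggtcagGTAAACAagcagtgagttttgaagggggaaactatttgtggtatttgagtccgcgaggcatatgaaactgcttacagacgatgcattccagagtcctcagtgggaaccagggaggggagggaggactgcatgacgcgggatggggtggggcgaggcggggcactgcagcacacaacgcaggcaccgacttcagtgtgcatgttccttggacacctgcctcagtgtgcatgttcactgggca
DNPEP: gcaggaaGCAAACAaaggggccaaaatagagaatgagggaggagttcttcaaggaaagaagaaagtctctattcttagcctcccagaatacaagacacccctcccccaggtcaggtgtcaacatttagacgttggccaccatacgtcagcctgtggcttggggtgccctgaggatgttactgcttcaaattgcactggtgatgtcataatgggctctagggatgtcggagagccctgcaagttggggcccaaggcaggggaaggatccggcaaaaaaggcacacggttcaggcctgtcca
RHOH: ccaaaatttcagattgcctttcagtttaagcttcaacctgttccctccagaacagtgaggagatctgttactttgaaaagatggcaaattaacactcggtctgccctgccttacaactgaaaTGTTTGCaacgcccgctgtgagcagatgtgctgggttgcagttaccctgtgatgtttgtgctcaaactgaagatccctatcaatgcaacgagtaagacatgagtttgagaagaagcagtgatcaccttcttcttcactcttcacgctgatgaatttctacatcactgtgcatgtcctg
TPRG1L: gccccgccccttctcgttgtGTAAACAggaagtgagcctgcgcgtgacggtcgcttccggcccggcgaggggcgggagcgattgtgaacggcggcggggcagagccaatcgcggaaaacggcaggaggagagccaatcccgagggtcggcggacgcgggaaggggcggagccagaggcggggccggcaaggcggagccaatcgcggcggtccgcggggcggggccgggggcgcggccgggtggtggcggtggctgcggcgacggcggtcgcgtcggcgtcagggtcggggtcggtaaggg

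The named promoters were picked for the highest ranked sites of their kind, so their high percentiles follow from that choice. Among all shared sites of MDA-MB-453, the median score percentile was 77.5 in promoter windows and 75.3 elsewhere. It was 39.0 and 45.7 among MDA-MB-453-specific sites, and 50.1 and 45.4 among SKBR3-specific sites. The DNPEP site ranked at score percentiles of 99.7 and 99.9 in MDA-MB-453 and 99.4 and 99.9 in SKBR3. The NR2F1 site ranked at 98.8 and 98.5 in MDA-MB-453, and the CNR2 site at 93.4 and 96.0 in SKBR3. The score is the authors' own value for each peak and was used only for ranks within a list.

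Both lines had a large common set of sites, and MDA-MB-453 had more sites of its own when whole lists were set against each other. The FOXA1 lists held 188029 and 153024 peaks in MDA-MB-453, against 107598 and 116768 in SKBR3. The groups did not overlap, and the log2 difference of the means was 0.60 (exact two-sided permutation over 6 arrangements, p = 0.333, the smallest p they allow). In MDA-MB-453, 64396 sites (47.6%) were specific, 14340 (10.6%) intermediate and 56579 (41.8%) shared. In SKBR3, 26171 sites (28.9%) were specific, 7675 (8.48%) intermediate and 56674 (62.6%) shared. Replicates covered each other with 72.7% and 90.2% of their peaks in MDA-MB-453 and with 85.3% and 78.5% in SKBR3.

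The larger number of specific sites in MDA-MB-453 went with its longer lists. Peaks with no peak of the other line made up 56.2% and 51.3% of the MDA-MB-453 lists and 32.4% and 33.5% of the SKBR3 lists, a difference of 20.8 percentage points (SD 3.44 in MDA-MB-453 and 0.833 in SKBR3, n = 2 each, exact permutation p = 0.333). Each of these values was taken against the lists of the other line and was not recomputed when the labels were permuted. The values are thus not independent, and the difference is given as a description of size. Without MDA-MB-453 replicate 1, the longest list, it was 10.7. When every list was cut to its 107598 highest ranked peaks the difference was -1.01, with the sign turned. Specific sites then numbered 35998 of 92566 (38.9%) in MDA-MB-453 and 34208 of 87511 (39.1%) in SKBR3, and shared sites 47152 (50.9%) and 47555 (54.3%). Of these specific sites, 96.9% in MDA-MB-453 and 72.5% in SKBR3 had no peak of the other line in its whole lists either. The cut left SKBR3 replicate 1 whole and took far more peaks from the MDA-MB-453 lists. Whole lists thus brought back few SKBR3 peaks and many MDA-MB-453 peaks, so these shares cannot be weighed against each other. In the top 20000 peaks of each list, 92.7% of MDA-MB-453 replicate 1 met replicate 2 and 90.8% of SKBR3 replicate 1 met replicate 2. Across the lines, 45.5% to 46.2% of these peaks met one of the other list.

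**Figure D1:**
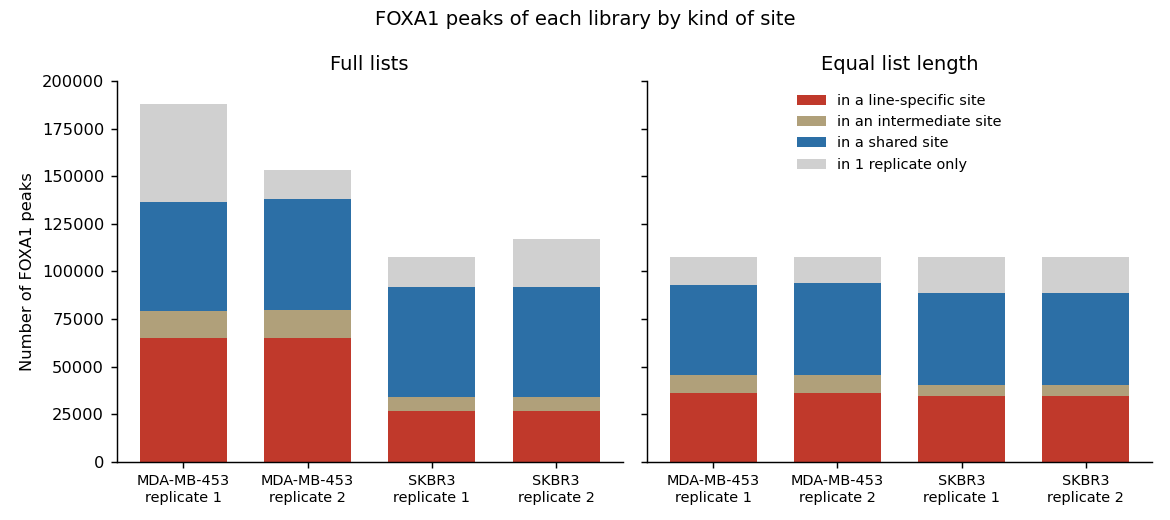
Number of FOXA1 peaks in each of the 4 libraries, split by the kind of site a peak lies in, for whole lists (left) and for lists cut to 107598 peaks (right). The specific part is larger in MDA-MB-453 than in SKBR3 in whole lists and about as large in lists of equal length.

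Specific sites lay mainly among the lower ranked sites in both lines. The sites of a line were put into deciles by their mean score percentile. From the lowest to the highest decile, the share of specific sites went down at every step, with 75.4% and 12.1% at the ends in MDA-MB-453 and 44.3% and 6.21% at the ends in SKBR3. Among the highest decile, 83.0% of MDA-MB-453 sites and 90.7% of SKBR3 sites were shared. A peak in a specific site outranked a peak in a shared site of its list with a probability of 0.244 and 0.255 in MDA-MB-453 and of 0.330 and 0.325 in SKBR3, where 0.5 means no difference. All 4 libraries lay under 0.5 (mean difference -0.211, SD 0.0451, n = 4, exact sign-flip permutation with 16 arrangements, two-sided p = 0.125, the smallest they allow). Here and in the sign-flip tests below, the 4 values are not independent. Sites were named from both replicates of a line together, and shared sites are overlapping regions of both lines. The test counts each library as a separate unit, so its p may be too small.

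Specific sites were also narrower over whole lists. The median width of peaks in specific sites was 410 and 374 bp in MDA-MB-453 and 415 and 416 bp in SKBR3, against 607 and 554 bp in shared sites of MDA-MB-453 and 509 and 518 bp in those of SKBR3. The mean difference was -143 bp, with the same sign in all 4 libraries (SD 52.8 bp, exact sign-flip permutation p = 0.125). Width went with rank, and within a decile the kinds differed little. In the highest decile, the median width of specific and shared sites was 950 and 1015 bp in MDA-MB-453 and 963 and 1022 bp in SKBR3, and in the lowest decile it was 351 and 359 bp in MDA-MB-453 and 374 and 380 bp in SKBR3. Specific sites of MDA-MB-453 were the narrower in every decile, but those of SKBR3 were wider than shared ones in deciles 2, 3 and 5 to 8, as with 523 and 513 bp in decile 6. Over all peaks, the median width was 401 and 410 bp in MDA-MB-453 and 432 and 417 bp in SKBR3, a difference of -19 bp (exact permutation p = 0.333). The sign of this difference between the lines turned at equal list length, where it was 86 bp, and without SKBR3 replicate 1 it was -11.5 bp.

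Over whole lists, fewer specific than shared sites lay at gene ends, where a gene end is the start or stop of a gene in the RefSeq table and the window is 1 kb. Of peaks in specific sites, 9.99% and 10.1% in MDA-MB-453 and 8.03% and 8.05% in SKBR3 lay there, against 12.0% and 12.2% of peaks in shared sites of MDA-MB-453 and 11.9% and 11.9% of those of SKBR3. The mean difference was -2.97 percentage points, with the same sign in all 4 libraries (SD 1.08, exact sign-flip permutation p = 0.125). The relation with rank was not alike in the lines. Among MDA-MB-453-specific sites the share at gene ends was 11.7% in the lowest decile by score and 3.31% in the highest, and among SKBR3-specific sites it was 8.30% in the lowest and 8.19% in the highest. Shared sites had 8.89% in the lowest and 9.83% in the highest decile in MDA-MB-453, and 19.5% and 9.41% in SKBR3. In MDA-MB-453 specific sites were thus more often at gene ends than shared ones in deciles 1 to 3 and less often in deciles 4 to 10, and in SKBR3 they were less often there in every decile. The difference between the lines in this relation was not tested. Promoter windows held 4.04% of MDA-MB-453-specific sites and 1.44% of SKBR3-specific sites, against 5.53% of shared sites of MDA-MB-453 and 5.11% of those of SKBR3.

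Over all peaks, 11.4% and 10.9% in MDA-MB-453 and 10.6% and 10.5% in SKBR3 lay at gene ends. The difference of 0.633 percentage points (SD 0.326 and 0.0697, n = 2 each) had an exact permutation p of 0.333. Its sign turned to -0.28 in the top 20000 peaks and to -0.142 with a window of 3 kb, and it was 0.403 without MDA-MB-453 replicate 1. At equal list length it was 0.696, and in the upper 50% of each list by score 0.951. With the ends of protein-coding genes alone it was 1.32, and with promoter windows in place of gene ends 0.939.

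Sites of T47D, an estrogen receptor positive line that played no part in naming the sites, covered shared sites far more often than specific ones. Of peaks in specific sites, 31.1% and 31.1% in MDA-MB-453 and 25.6% and 25.7% in SKBR3 met a T47D FOXA1 site, against 77.9% and 77.6% of peaks in shared sites of MDA-MB-453 and 77.9% and 78.0% of those of SKBR3. The mean difference was -49.5 percentage points (SD 3.23, n = 4, exact sign-flip permutation p = 0.125). Replicates of a line gave nearly the same values, so the SD mostly reflects the lines, with means of -46.7 in MDA-MB-453 and -52.3 in SKBR3. The mean difference was -19.1 among the top 20000 peaks of each list. Within the highest decile by score, 67.7% of MDA-MB-453-specific sites and 58.9% of SKBR3-specific sites met a T47D site, against 95.2% of shared sites of MDA-MB-453 and 95.7% of those of SKBR3.

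TLE3 peaks of the same line were taken from replicate 1. The library labelled SKBR3 TLE3 replicate 2 stands apart. Of its 94363 peaks, 21.7% met a FOXA1 site of its own line and 29.9% met one of MDA-MB-453. For SKBR3 TLE3 replicate 1, with 21149 peaks, these shares were 93.5% and 72.6%. Of FOXA1 peaks in specific sites, 18.9% and 18.8% in MDA-MB-453 and 13.1% and 13.1% in SKBR3 met a TLE3 peak, against 43.1% and 42.7% of peaks in shared sites of MDA-MB-453 and 25.3% and 25.3% of those of SKBR3. The mean difference was -18.2 percentage points (SD 6.82, n = 4, exact sign-flip permutation p = 0.125). It was -14.6 with replicate 2 of TLE3, -11.1 with TLE3 sites of both replicates and -7.13 among the top 20000 FOXA1 peaks of each list. The shares themselves depended on the TLE3 list. With TLE3 replicate 2 they were 8.12% and 8.07% of specific and 26.2% and 25.9% of shared peaks in MDA-MB-453, and 14.8% and 14.9% of specific and 26.1% and 26.2% of shared peaks in SKBR3. With TLE3 sites of both replicates they were 7.80% and 7.77% of specific and 25.9% and 25.6% of shared peaks in MDA-MB-453, and 4.48% and 4.49% of specific and 8.81% and 8.78% of shared peaks in SKBR3.

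At a like score rank the order of specific and shared sites in TLE3 was not always the one over whole lists. In MDA-MB-453 their share was above that of shared sites in deciles 6 to 10 and below it in deciles 1 to 5, and in SKBR3 it was above in deciles 1 to 9 and below in the highest. In the highest decile by score, 96.2% of specific and 91.4% of shared MDA-MB-453 sites met TLE3, in decile 9 80.9% and 69.0%, and in decile 8 55.1% and 46.9%. In SKBR3 the shares were 68.5% of specific and 78.2% of shared sites in the highest decile, 48.4% and 47.1% in decile 9, and 31.5% and 29.0% in decile 8. In the lowest decile all 4 shares lay between 2.47% and 3.40%. The share of TLE3 at specific sites as a whole thus moved with their rank. TLE3 of the other line, replicate 1, met 0.269% of MDA-MB-453-specific sites and 0.134% of SKBR3-specific sites. By definition these sites hold no FOXA1 peak of the other line. Of TLE3 peaks of replicate 1, 96.7% in MDA-MB-453 and 93.5% in SKBR3 met a FOXA1 site of their own line. Low shares were thus largely set by the definition.

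**Figure D2:**
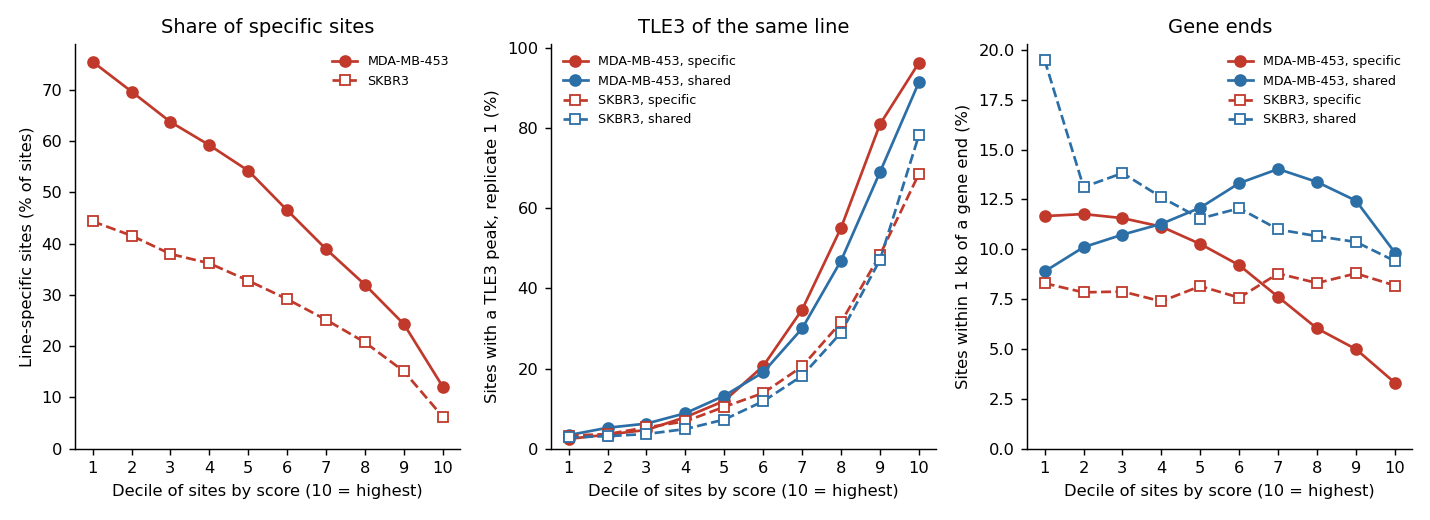
Sites of each line in deciles by score, from lowest (1) to highest (10), with MDA-MB-453 as filled circles and SKBR3 as open squares. The left panel gives the percent of sites that were specific, which goes down in both lines. The middle panel gives the percent of specific (red) and shared (blue) sites with a TLE3 peak of replicate 1, which goes up for both kinds. The right panel gives the percent within 1 kb of a gene end, which is 3.31% for the highest decile of MDA-MB-453-specific sites.

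The highest ranked sites of each kind were found away from gene ends. The top 5 shared sites lay in HERC6, DOP1B and ARFGEF3 and, outside genes, nearest to ARID1B and EDN1. Their percentiles were 99.9 or more in all 4 libraries, and all 5 met T47D FOXA1 and TLE3. The top 5 MDA-MB-453-specific sites lay in C12orf42 and PTPRT and nearest to NDN, DSEL and KLHL4. The one nearest to NDN (chr15:24072474-24073662) ranked at percentiles of 99.98 and 99.96 and all 5 met T47D FOXA1 and TLE3. The top 5 SKBR3-specific sites lay in PDE4D, a cyclic AMP phosphodiesterase gene, and STAT3, a cytokine signalling factor gene, and nearest to LOC124904276, KLHL29 and CLEC3A. The site in STAT3 (chr17:42325260-42326443) ranked at 99.5 and 99.4. All 5 met TLE3, and the one nearest to KLHL29 did not meet a T47D FOXA1 site. Nearest genes are given by position only.

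Both lines had bound regions near most genes, and specific and shared sites were mixed around them. An MDA-MB-453-specific site lay within 50 kb of 16915 of 19974 protein-coding genes (84.7%) and a SKBR3-specific site within 50 kb of 12044 (60.3%). A shared site was near 16945 genes (84.8%), and 10399 genes (52.1%) had specific sites of both lines. At 610 genes (3.05%) there was an MDA-MB-453-specific site and no SKBR3 peak, and at 73 genes (0.365%) a SKBR3-specific site and no MDA-MB-453 peak.

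Peaks in and within 50 kb of each gene were then counted in every library, scaled to 100000 peaks of the list and compared on the log2 scale after adding 0.5 (limma, Benjamini-Hochberg adjustment over 18217 genes with a mean of at least 2 peaks). Of these, 3929 (21.6%) were higher in MDA-MB-453 and 4570 (25.1%) were lower, at an adjusted p under 0.05. The calls depended on scaling. Without scaling to list length, 6801 genes were higher and 1010 lower, and the median over all genes was 0.52 in place of -0.04. At equal list length 1672 were higher and 2301 lower. In the same direction with scaling, without scaling and at equal length, 1210 genes (6.64%) were higher in MDA-MB-453 and 731 (4.01%) were lower. Without the demand on equal length, all 3929 higher calls held with and without scaling, but only 1010 (5.54% of all genes) of the 4570 lower calls. The unscaled step thus removed lower calls only, and the MDA-MB-453 lists are the longer ones. The numbers higher and lower on all 3 scales therefore cannot be weighed against each other. "On all 3 scales" below means this rule, which was chosen after the values were seen. Neighbouring genes share peaks and are not independent.

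**Figure D3:**
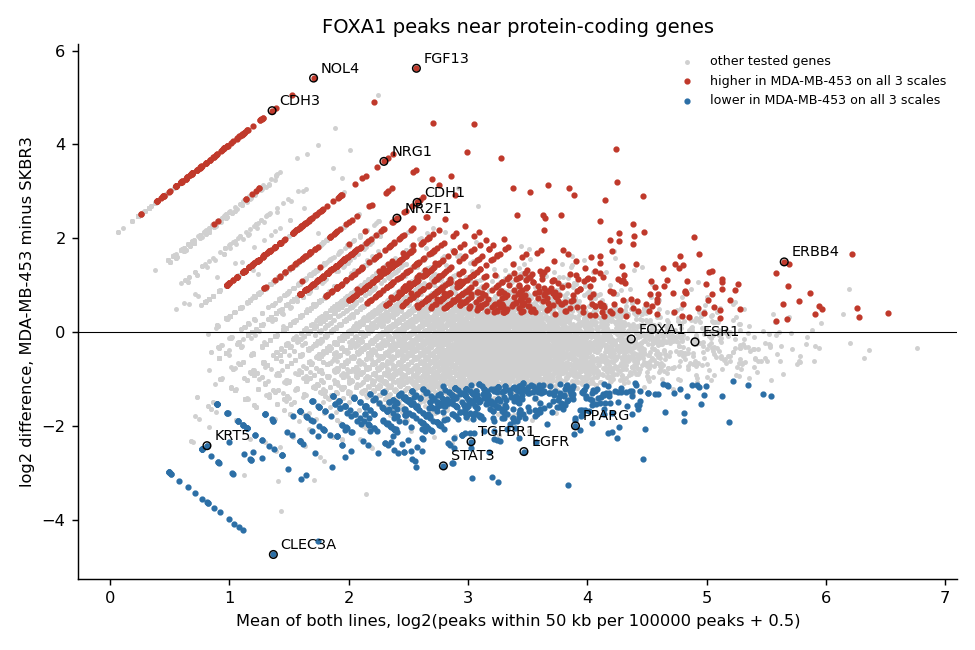
Each point is 1 of 18217 protein-coding genes, with the mean of both lines on the x axis and the log2 difference in FOXA1 peaks, MDA-MB-453 minus SKBR3, on the y axis, both on the scale log2(peaks per 100000 peaks + 0.5). Red and blue points were higher and lower in MDA-MB-453 on all 3 scales, and lines of points come from small whole numbers of peaks. NRG1, CDH1 and ERBB4 lie high, EGFR, STAT3 and PPARG low, and FOXA1 and ESR1 near 0.

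The largest differences were at genes with no or almost no peak in one line. FGF13, an intracellular relative of the fibroblast growth factors, had 75 and 65 peaks in MDA-MB-453, against 1 and 0 in SKBR3 (log2 difference 5.62, SE 0.39, limma adjusted p = 1.28e-05). NOL4 had 39 and 32 peaks in MDA-MB-453 and none in SKBR3 (5.41, SE 0.26, limma adjusted p = 1.85e-06). The 10 leading genes also included CDH8, a neuronal cadherin, CHRM2, a muscarinic acetylcholine receptor, ABCC9, a potassium channel subunit, PTDSS1, a phosphatidylserine synthase, KHDRBS2, CCDC178 and CDH3. In the other direction CLEC3A, a C-type lectin gene, had 0 and 0 peaks in MDA-MB-453 and 13 and 16 in SKBR3 (-4.74, SE 0.30, limma adjusted p = 7.43e-06). It was followed by LOC124906010, PSG4 and PSG2 of the pregnancy-specific glycoproteins, LOC124901794, NYX, CYP11A1, which encodes the cholesterol side-chain cleavage enzyme, ALDH1A1, a retinaldehyde dehydrogenase, CLEC1A and CBLN4. All of these held on all 3 scales except CCDC178 and ALDH1A1, with adjusted p of 0.0529 and 0.0788 at equal length. With no peak in a line, the log2 difference depends on the added 0.5 and is not a fold. PSG genes are close copies of each other, so where a read from one was placed is uncertain.

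Genes of ERBB ligands and receptors differed between the lines in both directions. NRG1, a ligand of ERBB3 and ERBB4 (chr8:31639245-32774046), had 34 and 24 FOXA1 peaks in MDA-MB-453, against 1 and 1 in SKBR3 (log2 difference 3.64, SE 0.21, limma adjusted p = 4.91e-06). NRG3, a ligand of ERBB4 (chr10:81875194-82987179), had 107 and 95 peaks in MDA-MB-453 and 16 and 16 in SKBR3 (2.02, SE 0.09). The ranges of the lines lay far apart at both. NRG2 went the other way, with 4 and 2 peaks in MDA-MB-453 and 18 and 17 in SKBR3 (-2.89, SE 0.23).

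Among the receptors, ERBB4 (chr2:211375717-212538802) had 157 and 129 peaks in MDA-MB-453 and 32 and 34 in SKBR3 (1.50, SE 0.07, limma adjusted p = 1.18e-06). Of its MDA-MB-453 sites 75 were specific and 23 shared, and of its SKBR3 sites 2 were specific and 23 shared. T47D had 133 and 112 FOXA1 peaks there. EGFR (chr7:55019017-55211628) was the reverse, with 8 and 6 peaks in MDA-MB-453 and 31 and 28 in SKBR3 (-2.55, SE 0.15, limma adjusted p = 5.64e-06). None of its MDA-MB-453 sites and 21 of its SKBR3 sites were specific. ERBB2 (chr17:39688094-39728658), the gene amplified in SKBR3, had 23 and 19 peaks in MDA-MB-453 and 25 and 27 in SKBR3. Its difference was -0.88 scaled (limma adjusted p = 0.00022) but -0.31 without scaling (limma adjusted p = 0.182), so it did not hold on all 3 scales. ERBB3, with 19 and 19 peaks in MDA-MB-453 and 8 and 14 in SKBR3, was not called (0.23, SE 0.21).

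TLE3 peaks of replicate 1 near these genes numbered 29 at ERBB4, 22 at NRG3, 8 at NRG1 and 2 at EGFR in MDA-MB-453, and 2, 1, 0 and 5 in SKBR3. These counts are not scaled, and the lists held 42698 TLE3 peaks in MDA-MB-453 and 21149 in SKBR3. With TLE3 replicate 2 the counts were 18, 14, 3 and 1 in MDA-MB-453. In SKBR3, where replicate 2 stands apart, they were 18, 11, 6 and 11. Of the 25 members of the ERBB list, 6 were higher (24%, against 21.6% of all genes) and 10 lower (40%, against 25.1%). On all 3 scales 5 were higher and 3 lower, where the shares over all genes were 6.64% and 4.01%. The others on all 3 scales were PIK3R1, a regulatory subunit of PI3 kinase (1.45), and GRB2, an adaptor (0.42), both higher, and CBL, a ubiquitin ligase of activated receptors (-1.59), which was lower. The median of the list was 0.05, against -0.04 over all genes.

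Of 22 tested luminal transcription factor genes 3 were higher (13.6%, against 21.6% of all genes), 6 lower (27.3%, against 25.1%) and 13 not called. On all 3 scales 2 were higher and 3 lower, where the shares over all genes were 6.64% and 4.01%. All 22 had a shared site. MYB, with 28 and 26 peaks in MDA-MB-453 and 13 and 13 in SKBR3, was higher on all 3 scales (0.44, SE 0.13). TFAP2C, an AP-2 factor gene, had 8 and 9 peaks in MDA-MB-453 and 14 and 18 in SKBR3 (-1.41, SE 0.19). GRHL1, a grainyhead factor gene, had 14 and 12 in MDA-MB-453 and 25 and 27 in SKBR3 (-1.54, SE 0.12), and RARA, a retinoic acid receptor gene, 15 and 12 in MDA-MB-453 and 19 and 21 in SKBR3 (-1.12, SE 0.13). These 3 were lower on all 3 scales.

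FOXA1's own gene (chr14:37589552-37595249) had 34 and 31 peaks in MDA-MB-453 and 21 and 27 in SKBR3, with 19 shared and 6 specific MDA-MB-453 sites. It was not called, with a difference of -0.15 scaled, 0.09 at equal length and 0.44 without scaling. GATA3, XBP1, SPDEF, GRHL2, TFAP2A and TFAP2B, factors of luminal cells, were likewise not called. ESR1, the gene of the estrogen receptor that neither line is known to express, had 50 and 43 peaks in MDA-MB-453 and 35 and 36 in SKBR3 (-0.21, SE 0.09, limma adjusted p = 0.0764), against 86 and 76 in T47D. PGR, with 20 and 19 peaks in MDA-MB-453 and 10 and 9 in SKBR3 (0.42, SE 0.16), and TFF1, with 12 and 11 in MDA-MB-453 and 8 and 8 in SKBR3 (-0.07, SE 0.17), were not called. Both are known estrogen targets. Of 20 genes of estrogen response 2 were higher (10%, against 21.6% of all genes) and 9 lower (45%, against 25.1%). On all 3 scales 1 was higher, NRIP1 (0.40), and 1 lower, MYC (-1.50), with 6.64% and 4.01% of all genes.

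Of 26 tested nuclear receptor and coregulator genes 6 were higher (23.1%, against 21.6% of all genes) and 9 lower (34.6%, against 25.1%). NR2F1 had 25 and 16 peaks in MDA-MB-453 and 2 and 2 in SKBR3 (2.43, SE 0.21, limma adjusted p = 3.49e-05). The MDA-MB-453-specific site over its promoter, printed above, was 1 of 12 specific sites near it. NR2F2 (0.84), RORA (1.14), a receptor with a part in circadian rhythm, and TLE4 (1.29), a Groucho corepressor like TLE3, were also higher on all 3 scales. PPARG, a receptor known for fat and urothelial cells (chr3:12287368-12434344), had 14 and 10 peaks in MDA-MB-453 and 31 and 35 in SKBR3 (-2.00, SE 0.13, limma adjusted p = 7.61e-06), with 2 specific sites in MDA-MB-453 and 19 in SKBR3. TLE3 itself had 17 and 11 peaks in MDA-MB-453 and 19 and 21 in SKBR3 (-1.10, SE 0.15, limma adjusted p = 0.000327), which did not hold without scaling (-0.53, limma adjusted p = 0.0915).

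Genes of the androgen and apocrine list were lower more often than higher on the scaled measure, with 15 lower (51.7%, against 25.1% of all genes) and 2 higher (6.90%, against 21.6%) of 29 tested, and on all 3 scales 3 were lower and 1 higher. The background over all genes on all 3 scales was 4.01% lower and 6.64% higher. FKBP5, an androgen-induced chaperone gene, had 27 and 18 peaks in MDA-MB-453 and 6 and 6 in SKBR3 (1.21, SE 0.16, limma adjusted p = 0.000373). SCGB1D2, a secretoglobin gene (-1.45), ABCC4, a transporter gene (-1.30), and STEAP4, a metalloreductase gene (-1.09), were lower. PIP, an apocrine secretory gene, had 15 and 12 peaks in MDA-MB-453 and 10 and 9 in SKBR3 and was not called. The list's median was -0.41 scaled, -0.41 at equal length and 0.17 without scaling, against -0.04, -0.04 and 0.52 over all genes, so it lay below all genes in each case.

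CDH1 and CDH3, neighbouring cadherin genes on chromosome 16, were higher in MDA-MB-453. CDH1, which encodes E-cadherin (chr16:68737292-68835537), had 26 and 25 peaks in MDA-MB-453 and 2 and 2 in SKBR3 (2.77, SE 0.19, limma adjusted p = 1.26e-05). CDH3, which encodes P-cadherin and lies beside it (chr16:68645310-68733771), had 22 and 21 peaks in MDA-MB-453 and none in SKBR3 (4.72, SE 0.30, limma adjusted p = 7.82e-06). Their windows overlap, so they share peaks. As given above, less binding and fewer copies of a region cannot be told apart from these lists, here as elsewhere. T47D had 21 and 24 FOXA1 peaks at CDH1 and 22 and 27 at CDH3. KRT8 and KRT18, the neighbouring luminal keratin genes, were lower when scaled (-0.65, SE 0.12, and -0.90, SE 0.14) but not without scaling (-0.07 and -0.34).

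Of 24 basal and myoepithelial genes 4 were higher (16.7%, against 21.6% of all genes) and 11 lower (45.8%, against 25.1%). KRT5 had 0 and 1 peaks in MDA-MB-453 and 4 and 4 in SKBR3 (-2.42, SE 0.44, limma adjusted p = 0.00179), and KRT17 1 and 1 in MDA-MB-453 and 3 and 4 in SKBR3 (-1.72, SE 0.34). SOX9 (-1.50) and CAV1 (-1.78) were lower too, and ACTA2 (3.06), CNN1 (1.42) and LAMB3 (0.75) higher, with CDH3, on all 3 scales. ACTA2, the smooth muscle actin gene, had 13 and 9 peaks in MDA-MB-453 and 0 and 1 in SKBR3. Among 23 mesenchymal and TGF-beta genes 4 were higher (17.4%, against 21.6% of all genes) and 10 lower (43.5%, against 25.1%), and only TGFBR1, a TGF-beta receptor gene with 7 and 4 peaks in MDA-MB-453 and 19 and 21 in SKBR3 (-2.34, SE 0.19), held on all 3 scales, where 4.01% of all genes were lower. VIM, the vimentin gene, had 3 and 1 peaks in MDA-MB-453 and 5 and 4 in SKBR3 and was lower when scaled alone (-1.53, SE 0.36).

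STAT3 and STAT5B, neighbouring genes of cytokine and prolactin signalling on chromosome 17, were lower in MDA-MB-453. STAT3 (chr17:42313324-42388442) had 6 and 2 peaks in MDA-MB-453 and 18 and 23 in SKBR3 (-2.85, SE 0.29, limma adjusted p = 8.52e-05), with no specific site in MDA-MB-453 and 13 in SKBR3. STAT5B had 4 and 2 in MDA-MB-453 and 11 and 14 in SKBR3 (-2.41, SE 0.24). SOCS3, a feedback inhibitor (-1.26), was lower as well, and GHR, the growth hormone receptor gene (0.54), and IGFBP5 (1.04) were higher, all on all 3 scales. Of this list of 20 genes 3 were higher (15%, against 21.6% of all genes) and 10 lower (50%, against 25.1%). Its median was -0.48 scaled and 0.09 without scaling, against -0.04 and 0.52 over all genes.

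In the WNT and NOTCH list, DLL1 (1.31) and JAG1 (0.53), NOTCH ligand genes, and HES4 (1.19) were higher, and HES1 (-1.30) and HEY1 (-1.45), NOTCH target genes, and WNT5A (-1.45) lower on all 3 scales. In all, 6 of its 27 tested members were higher (22.2%, against 21.6% of all genes) and 11 lower (40.7%, against 25.1%). Of 28 tested forkhead genes 5 were higher (17.9%) and 8 lower (28.6%), near the shares over all genes. FOXD3 (0.96), FOXE1 (0.72) and FOXO4 (0.71) were higher and none lower on all 3 scales, and at equal length 3 were higher and 2 lower. The prostate and liver list had the highest median, 0.26 scaled, 0.37 at equal length and 0.82 without scaling, with 7 of 20 members higher (35%) and 5 lower (25%). The medians over all genes were -0.04, -0.04 and 0.52. Its members on all 3 scales were ONECUT2 (2.49), NKX3-2 (1.00) and APOA1 (0.95). Of 24 cell cycle genes 4 were higher (16.7%) and 12 lower (50%, against 25.1% of all genes), and on all 3 scales CDK2 was higher (1.10) and RRM2 (-1.48) and CDC6 (-1.15), which lies beside RARA, lower. Of 17 housekeeping genes 1 was higher (5.88%) and 2 lower (11.8%), and of 22 tested genes of other lineages 3 were higher (13.6%) and 6 lower (27.3%). Luminal epithelial structure genes had 3 higher (13.6%) and 11 lower (50%) of 22. CDH1 and ESRP1 (1.24), a splicing factor of epithelial cells, were higher on all 3 scales and none was lower. At equal length 2 were higher and 6 lower, and those 6 did not hold without scaling. For this and the other lists here, the shares of all genes on all 3 scales were 6.64% higher and 4.01% lower.

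**Figure D4:**
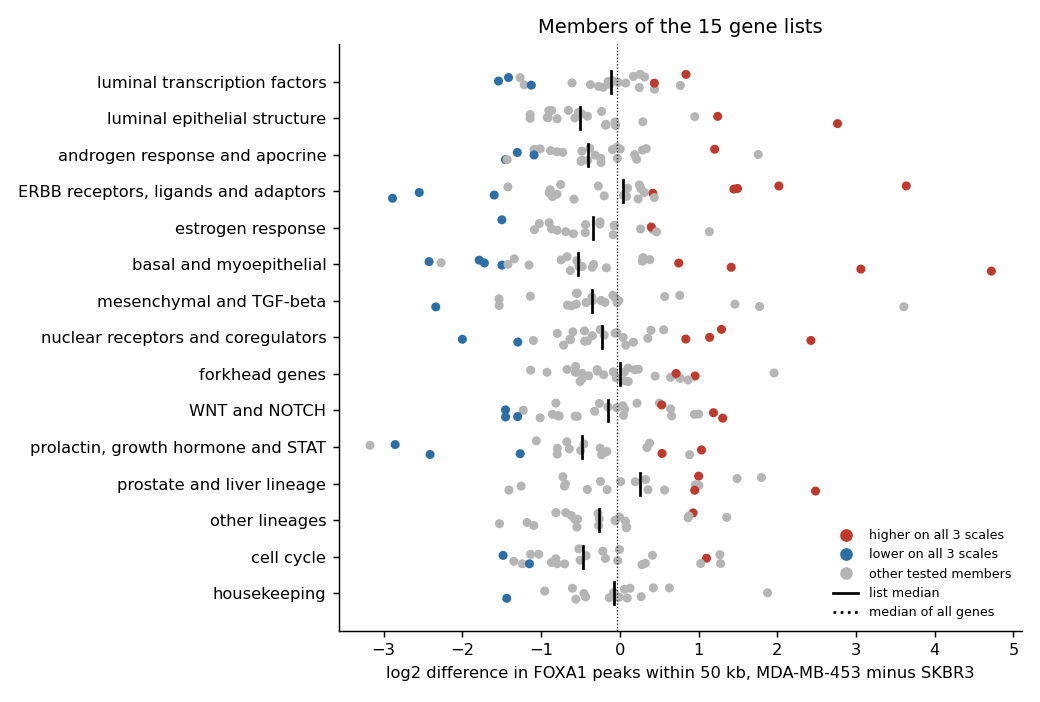
Log2 difference in FOXA1 peaks within 50 kb, MDA-MB-453 minus SKBR3, for the tested members of the 15 gene lists, 1 point per gene. Red members were higher and blue members lower on all 3 scales, black bars are list medians, and the dotted line is the median of all genes at -0.04. List medians lie between -0.53 and 0.26. Without scaling to list length all values move up together, and the median of all genes is then 0.52.

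Part of the difference lay in long stretches bound in one line only. A stretch was a run of consecutive sites of a line with no peak of either replicate of the other between them. There were 525 stretches of 10 or more sites in MDA-MB-453 and 23 in SKBR3, though the median stretch held 1 site in both. These numbers are of whole lists, which are longer in MDA-MB-453, and they were not recomputed at equal length. The longest in MDA-MB-453 held 137 sites on chromosome X around GPR101 and FGF13, with 189 and 156 peaks in the replicates. Others lay further along chromosome X, with 130 sites (chrX:144858587-147666268) and with 82 sites. One on chromosome 19 (chr19:20301462-24322878) held 112 sites among a cluster of 31 genes, nearly all zinc finger genes, and one on chromosome 8 (chr8:104164733-105726621) held 99 sites around RIMS2, LRP12 and ZFPM2. Zinc finger genes of such clusters are similar in sequence, so where reads were placed there is uncertain.

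Sites in these stretches were of middling rank, with median score percentiles of 45.0 to 57.1. T47D had sites at 76 of the 112 on chromosome 19 and 49 of the 99 on chromosome 8, but at 13 of the 137 around FGF13. SKBR3 TLE3 replicate 1 had no peak in any of the 5 stretches, and SKBR3 TLE3 replicate 2, which stands apart, had 18, 10, 0, 12 and 19 peaks from the longest to the fifth. Of replicate 1 peaks, 93.5% met a FOXA1 site of SKBR3, and the stretches hold none. Their absence there was thus largely set by how stretches were defined. The longest stretches of SKBR3 were shorter, with 25 sites in and around TSHZ2 (chr20:52730836-53039619), 22 in SDK1 (chr7:4152105-4418591) and 18 in XYLT1 (chr16:16951016-17299624), and 16 sites each at the PSG genes of chromosome 19 and at BCL11A on chromosome 2.

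By 1 Mb bins, 1117 of 2850 (39.2%) were higher in MDA-MB-453 and 1037 (36.4%) lower (limma adjusted p under 0.05), and without scaling 1620 were higher and 158 lower. The highest were bins of chromosome X at FGF13, with 99 and 77 peaks in MDA-MB-453 and none in SKBR3, and near SLITRK2, GPR101 and CXorf51A, and a bin of chromosome 18 at CDH19, with 62 and 43 peaks in MDA-MB-453 and none in SKBR3. The lowest was a bin of chromosome 7 at GALNT17 and CALN1, with 7 and 7 peaks in MDA-MB-453 and 47 and 55 in SKBR3 (-3.31, SE 0.16, limma adjusted p = 3.26e-09). It was followed by bins at DLC1 on chromosome 8, on chromosome 19, at CBLN4 on chromosome 20 and at PTCH1 on chromosome 9.

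By whole chromosome, the share of the list was higher in MDA-MB-453 on 9 of 23 (39.1%) and lower on 10 (43.5%; limma adjusted p under 0.05). Chromosome X held 3.80% and 3.73% of the peaks of MDA-MB-453 and 2.45% and 2.53% of those of SKBR3 (log2 difference 0.59, SE 0.02, limma adjusted p = 1.58e-09). Chromosome 18 followed with 2.58% and 2.56% in MDA-MB-453 and 1.82% and 1.86% in SKBR3 (0.48, SE 0.02), then chromosomes 4 (0.26) and 5 (0.20). Chromosome 7 was lowest, with 4.76% and 4.74% in MDA-MB-453 and 6.53% and 6.44% in SKBR3 (-0.45, SE 0.02, limma adjusted p = 1.68e-09), then chromosomes 20 (-0.40), 17 (-0.38) and 9 (-0.37). Specific sites made up 63.0% of the MDA-MB-453 sites of chromosome X and 60.1% of those of chromosome 18, against 37.4% on chromosome 7. Among SKBR3 sites the share was 37.5% on chromosome 9, 33.8% on chromosome 7 and 27.7% on chromosome X. At equal list length the differences were 0.57 for chromosome X and -0.47 for chromosome 7.

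**Figure D5:**
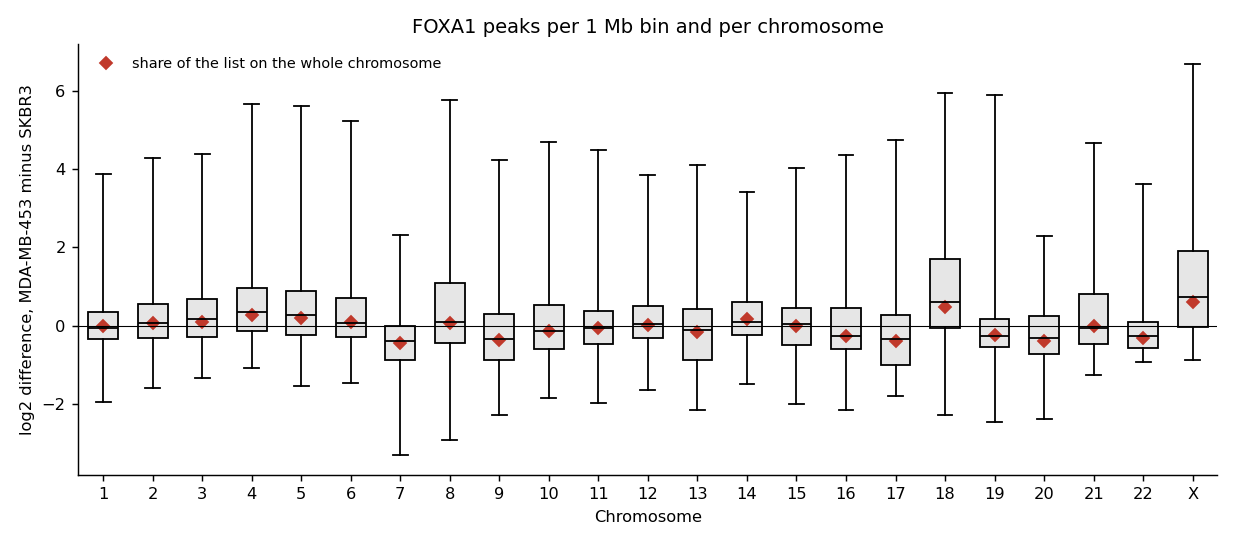
Log2 difference in FOXA1 peaks, MDA-MB-453 minus SKBR3, by chromosome. Boxes show the middle 50% of 1 Mb bins with the median as a line and whiskers to the lowest and highest bin, and red diamonds show the share of the list on the whole chromosome. Chromosomes X (0.59) and 18 (0.48) lie highest and chromosome 7 (-0.45) lowest, and bins within a chromosome spread far more widely than the chromosomes do.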

How the data were processed

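FOXA1 was mapped by ChIP-seq in MDA-MB-453 and SKBR3 with 2 libraries per line. The tools named in the submitters' processing notes are MACS2, SAMtools, BWA 0.7.5a and Trim Galore, with hg38 as build, and per the labels the FOXA1 antibody was from Diagenode. Settings of the caller and the input behind each list are not stated there. Each library has its own deposited list of peaks with a score by the authors, whose lowest value lay between 2.00 and 2.02 and whose quantity is not named. No reads are given, so depth is unknown.

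Members and lists were chosen with earlier results of these data known. Peaks on chromosomes 1 to 22 and X were used. Overlaps, sites and counts were computed in Python 3.11.15 with pandas 2.3.3 and numpy 2.4.6, and gene, bin and chromosome fits in limma 3.58.1 (R 4.3.3, trend and robust). Genes came from RefSeq (GRCh38.p14), whose gene table gives no strand, and all 356 list entries matched. Values per library were compared by exact permutation. On simulated counts for the gene fit, with 17917 genes, 44% of 200 genes changed 4-fold were recovered, with 0 false calls. Those counts were drawn independently for each library, while real replicates of a line called many of the same regions. The spread thus differs, and false calls in the real data were not measured. No pair of lists shared over 0.00784% of intervals. Genes were named by a rule: leading sites, the 10 largest called differences in each direction, list members, longest stretches, top bins and promoters, and 24 genes whatever their values. Alternatives were equal length, shorter lists, other windows, filters, pseudocount, scaling, overlap, left-out libraries and a replicate block. Promoter windows in place of gene ends, and the rule of 3 scales, were added after seeing the data. Some genes named by the rule are left unreported.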

Additional observations from a re-analysis of the deposited data

How the results depend on the processing

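The differences between specific and shared sites (gene ends, width, rank, T47D FOXA1 and TLE3) kept their sign under every alternative run for them. None of these alternatives matched sites by rank. Within deciles by score, the order in gene ends, width and TLE3 turned in some deciles, as given above. No difference could pass the threshold, since 4 libraries allow no exact p under 0.125. The values of the 4 libraries are also not independent in these tests, as given above. Between the lines, the differences in peaks without the other line and in median width turned their sign at equal length. At equal length the difference in peaks without the other line was -1.01 points and that in median width 86 bp. In the top 20000 peaks these were -0.2775 points and 63.5 bp. The difference in peaks at gene ends kept its sign at equal length, at 0.696 points. It was -0.28 points in the top 20000 peaks and -0.142 with a window of 3 kb. Genes called were 8499 in all, 3973 at equal length, where the lists hold fewer peaks, 5003 with a 10 kb window, where 12508 genes were tested, and 6876 to 8801 with 1 library left out. Bins called numbered 1927 to 2170 and chromosomes 16 to 18 with 1 library left out, against 2154 and 19. Without scaling the gene calls were split as 6801 higher and 1010 lower, against 3929 and 4570. Leaving out a library gave 0.449 to 0.746 for the log2 number of peaks, 10.7 to 27.8 points for peaks without the other line, 0.403 to 0.864 points for gene ends and -26.5 to -11.5 bp for width. For specific minus shared it gave -3.03 to -2.61 points at gene ends, -147 to -130 bp, -0.214 to -0.199 in rank, -48.9 to -45.1 points with T47D FOXA1 and -18.7 to -16.4 points with TLE3.

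Of 94 named genes, 82 were called. Without scaling, which put the median of all genes at 0.52 in place of -0.04, the sign turned at TFAP2A (0.49), SPDEF (0.20), ESR1 (0.38), PIP (0.48), GRHL2 (0.46), FOXA1 (0.44) and TFF1 (0.50). The sign also turned at equal length at PIP (0.20), GRHL2 (0.0887), FOXA1 (0.0907) and TFF1 (0.25), and in the upper 50% by score at ESR1 (0.0630), GATA3 (-0.26), TFF1 (0.56) and JAG1 (-0.29). With a 10 kb window it turned at PIP (0.42), GRHL2 (0.11), XBP1 (-0.15) and CDK2 (-0.22), and with 100 kb at PIP (0.26) and IGFBP5 (-0.0142). With 1 library left out the values ran from -0.22 to 0.0350 at PIP and from -0.0938 to 0.56 at ERBB3, turning without SKBR3 replicate 1, and from -0.15 to 0.00957 at TFF1 and from -0.0102 to 0.164 at XBP1, turning without MDA-MB-453 replicate 1. The cause was not tested. JAG1, IGFBP5 and CDK2 were called genes, and the others were not called. The labels do not pair replicates of the lines, and deviations of same-numbered replicates correlated at -0.00854 over genes, 0.0627 over bins and 0.389 over chromosomes. With the replicate block 8421 genes, 2191 bins and 19 chromosomes were called, and a block over 2 pairs allows no exact p under 0.5. Depth is unknown, so the number of weak peaks each list could hold is unknown too.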
